A study of Mus musculus with 6 samples.

Results

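Mpo, Elane, Prtn3, Ctsg and Ms4a3, 5 genes of the promyelocyte's primary granule programme, were followed in mouse MLL-AF9 leukaemia cells with and without knockdown of Kdm1a. They were chosen by gene identifier, ENSMUSG00000009350 (Mpo), ENSMUSG00000020125 (Elane), ENSMUSG00000057729 (Prtn3), ENSMUSG00000040314 (Ctsg) and ENSMUSG00000024681 (Ms4a3), and all 5 were found among the 23770 rows of the deposited gene-level table. The rule uses identifiers and no measured value, but these genes and the lists used below were chosen with earlier results of these data known. The data are 6 arrays, 3 labelled control and 3 labelled Kdm1a KD, all from murine acute myeloid leukaemia cells carrying the MLL-AF9 fusion on a C57BL/6 background and enriched for leukaemia stem cells. Cells of both groups had been frozen, thawed, spun with viral supernatant and kept overnight with it. No source used here names the hairpin, the control construct, the interval from infection to harvest or the age of the mice. The design text speaks of 3 samples from 2 animals without saying which, so some samples of a group may share an animal and p-values measure only the spread between these samples.

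Primary or azurophil granules are the first granules a neutrophil precursor makes, and their proteins are transcribed at the promyelocyte stage and then shut off as secondary granules form. Myeloperoxidase, encoded by Mpo, makes hypochlorous acid from hydrogen peroxide and chloride. Neutrophil elastase (Elane), proteinase 3 (Prtn3) and cathepsin G (Ctsg) are related serine proteases stored active in the granule. Ms4a3 encodes a membrane-spanning protein of granulocyte-monocyte progenitors that is known as a cell cycle regulator. The 3 proteases and Mpo are textbook targets of C/EBP, PU.1, MYB and RUNX factors.

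The start-proximal sequences of the 3 protease genes and of Ms4a3 are shown because the proteases kept within a narrow range over these arrays and Ms4a3 did not. They are the 120 bases before the annotated start in RefSeq, build GRCm38.p6, read 5′ to 3′ on the gene's strand, with capitals for matches on either strand to GAGGAA (PU.1), CAACNG (MYB), TGTGGT (RUNX) or TTNNGNAA (C/EBP). Elane and Prtn3 are neighbours on chromosome 10 (plus strand, chr10:79886192-79886311 and chr10:79879547-79879666), Ctsg lies on chromosome 14 (minus strand, chr14:56102575-56102694) and Ms4a3 on chromosome 19 (minus strand, chr19:11640852-11640971).
Elane: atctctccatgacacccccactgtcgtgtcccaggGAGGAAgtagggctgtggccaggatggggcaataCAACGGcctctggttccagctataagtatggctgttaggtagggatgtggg
Prtn3: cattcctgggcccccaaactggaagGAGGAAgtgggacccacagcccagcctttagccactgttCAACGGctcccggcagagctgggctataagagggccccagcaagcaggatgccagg
Ctsg: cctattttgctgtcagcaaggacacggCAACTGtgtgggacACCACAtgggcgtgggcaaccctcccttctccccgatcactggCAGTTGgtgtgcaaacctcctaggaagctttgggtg
Ms4a3: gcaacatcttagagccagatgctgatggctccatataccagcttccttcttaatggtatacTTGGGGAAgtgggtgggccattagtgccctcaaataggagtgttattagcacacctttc

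Elane and Prtn3 held the same 2 words in the same order, GAGGAA beginning 85 and 95 bases before the start and CAACGG beginning 51 and 56 bases before it. Ctsg held CAACNG 93 bases before the start on its own strand and 36 bases before it on the other strand, the RUNX word on the other strand 79 bases before it, and GAGGAA farther out at 216 bases. Mpo, whose sequence is not printed, held GAGGAA alone, at 247 and 224 bases, and Ms4a3 held only the C/EBP word, at 59 bases. Values of Mpo spread nearly as widely over the 6 arrays as those of Ms4a3, by 1.44 against 1.55 log2 units. Whether these words relate to the spread was not tested. In windows of 250 bases, GAGGAA was found in 23.3% of 32851 mouse promoters, CAACNG in 29.3%, TGTGGT in 14.0% and TTNNGNAA in 36.8%, and 0 matches of different words overlapped in the 5 windows shown or described. These are letter matches and say nothing about whether a factor was bound in these cells.

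The target of the knockdown was checked on single probe rows, which a second deposited table holds. Kdm1a, the lysine demethylase, is annotated on 23 probe rows under its older symbol Aof2. Their mean log2 value was 8.08, 8.14 and 8.15 in the control arrays and 6.24, 6.01 and 6.23 in the knockdown arrays. Kdm1a thus fell in the samples labelled knockdown to 25.7% of the control level, a log2 difference of -1.96 (SE 0.121, limma adjusted p = 0.0072 over 18916 symbols). The arrays numbered 1 resembled each other more than any other control-knockdown pair of arrays did (Pearson's r across rows 0.9897 between them, 0.9687 to 0.9847 for the other pairs). Arrays within a group were not compared in this way. The differences of the 5 genes and the medians of the granule and regulator lists are therefore also given without these 2 arrays.

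The primary granule genes had no common direction in the knockdown arrays. Values of Mpo averaged higher, values of Ms4a3 averaged lower, and Elane, Prtn3 and Ctsg lay between 87.9% and 105% of their control level. Of the 5 genes, 0 passed an adjusted p of 0.05 in limma and 0 had an unadjusted p under 0.05. Over all rows the same fit called 0.00421% at the adjusted and 5.28% at the unadjusted threshold. The median log2 difference of the 5 genes was -0.11 (3 lower, 2 higher), against -0.02 over all rows, and without the arrays numbered 1 again 0 of 5 passed, as did 0% of all rows.

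**Figure D1:**
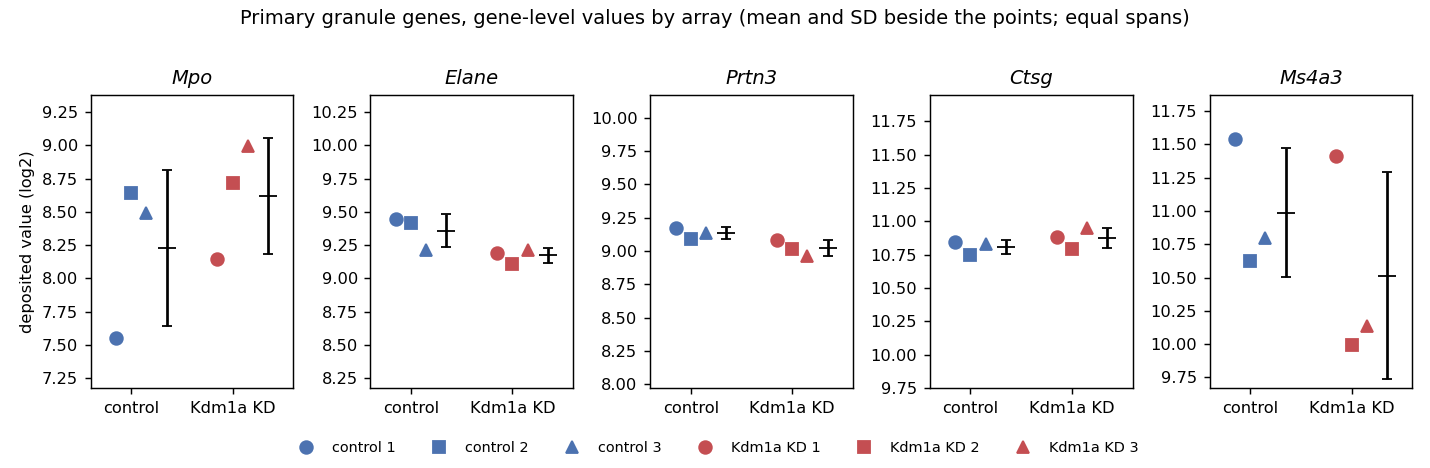
Deposited log2 value (y axis) of each primary granule gene in the 3 control and 3 Kdm1a knockdown arrays, with marker shape for the replicate number and a bar for the mean and SD beside each group; all panels span the same height. Mpo and Ms4a3 spread over 1.44 and 1.55 log2 units, with the arrays numbered 1 (circles) at the low end of each group for Mpo and at the high end for Ms4a3, while the 3 proteases stay within 0.33.

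Mpo had the highest average difference in the upward direction. Its log2 values were 7.56, 8.64 and 8.49 in the control arrays and 8.15, 8.71 and 8.997 in the knockdown arrays. Control array 1 was the lowest of all, and the lowest knockdown array lay below 2 of the 3 controls, so the groups overlapped. The means were 8.23 ± 0.588 (SD, n = 3) and 8.62 ± 0.434 (SD, n = 3), a difference of 0.39 (SE 0.332, limma adjusted p = 0.936). The 95% interval, -0.39 to 1.17, ran from 0.764 to 2.25 times the control level. Control array 1 moved this value most. Without it the difference was 0.05, without knockdown array 1 it was 0.63, and without both it was 0.29 (SE 0.179, limma adjusted p = 0.680).

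All 15 probe rows annotated to Mpo were higher on average in the knockdown arrays, by 0.10 to 0.83 log2 units with a median of 0.42. Rows of 1 gene share its RNA and are not replicates. In 0 of the 15 rows did the groups separate, as they did in 10.9% of all probe rows, and 0 reached an unadjusted p under 0.05, which 5.3% of all probe rows did. By array number, which was not taken to pair samples, the knockdown array was above its same-numbered control in 15, 11 and 12 of the 15 rows for numbers 1, 2 and 3. With the arrays numbered 1 left out, 14 of 15 rows remained higher, with a median of 0.32.

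Elane, the elastase gene, lay slightly lower in the knockdown arrays. Its log2 values were 9.44, 9.42 and 9.22 in control and 9.19, 9.11 and 9.22 in knockdown. The highest knockdown array and the lowest control array, both numbered 3, differed by 0.001 log2 units. The difference of the means was -0.19 (SE 0.126, limma adjusted p = 0.932), or 87.9% of control, with a 95% interval from 0.716 to 1.08 times the control level. Of its 7 probe rows 6 were lower and 1 was higher, between -0.39 and 0.24. In 2 of the 7 the groups separated, both lower, where 10.9% of all probe rows separated in either direction. Without the arrays numbered 1 the difference was -0.16.

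Prtn3, the neighbouring proteinase 3 gene, had 9.18, 9.09 and 9.14 in control and 9.09, 9.01 and 8.97 in the knockdown arrays. The highest knockdown array lay just below the lowest control array. The means differed by -0.11 (SE 0.116, limma adjusted p = 0.940), or 92.4% of control, with an interval from 0.766 to 1.12 times control. Groups did not overlap in these 2 genes, Elane and Prtn3, both lower, and over all rows 6.07% were lower without overlap. Of 6 probe rows for Prtn3, 4 were lower and 2 higher, from -0.44 to 0.10. In 2 of the 6 the groups separated, both lower, against 10.9% of all probe rows in either direction. Without the arrays numbered 1 the Prtn3 difference was -0.13. After quantile normalization of the arrays the Prtn3 difference was 0.00437, and after median centring it was -0.15. Quantile normalization was the only 1 of 14 alternatives in which its sign turned.

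Ctsg, cathepsin G, had log2 values of 10.85, 10.75 and 10.83 in control and 10.88, 10.80 and 10.95 in knockdown arrays. The groups overlapped. The difference was 0.07 (SE 0.118, limma adjusted p = 0.963), with an interval from 0.864 to 1.27 times the control level. Of the 9 probe rows 6 were higher and 3 lower, from -0.14 to 0.17. In 1 of the 9 the groups separated, with the knockdown higher, against 10.9% of all probe rows in either direction. Without the arrays numbered 1 the Ctsg difference was 0.08. The 3 proteases are related in sequence, and whether their probes cross-hybridise was not tested.

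Ms4a3 showed the lowest average relative to control. Its log2 values were 11.54, 10.63 and 10.80 in control arrays and 11.41, 9.997 and 10.14 in knockdown arrays. Array 1 of either group stood far above the rest, and knockdown array 1 lay above control arrays 2 and 3, while knockdown arrays 2 and 3 lay below every control. The means were 10.99 ± 0.488 (SD, n = 3) and 10.51 ± 0.778 (SD, n = 3), a difference of -0.47 (SE 0.408, limma adjusted p = 0.936), with an interval from 0.371 to 1.40 times control. Without control array 1 the difference was -0.20 and without knockdown array 1 it was -0.92. With both left out it was -0.64 (SE 0.165), or 64.0% of control, at an unadjusted p of 0.0086 that did not pass the adjustment over all rows (limma adjusted p = 0.504, where 8.53% of rows had an unadjusted p under 0.05 in that fit).

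The 5 probe rows of Ms4a3 behaved alike. Each was lower on average in the knockdown, by 0.37 to 0.53 log2 units. Each was also lower in the knockdown array than in the same-numbered control for numbers 1, 2 and 3, though the numbers were not taken to pair samples. In 0 of 5 rows did the groups separate, against 10.9% of all probe rows in either direction. Array 1 was the highest of its group in 5 of 5 rows in control and in 5 of 5 in knockdown.

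**Figure D2:**
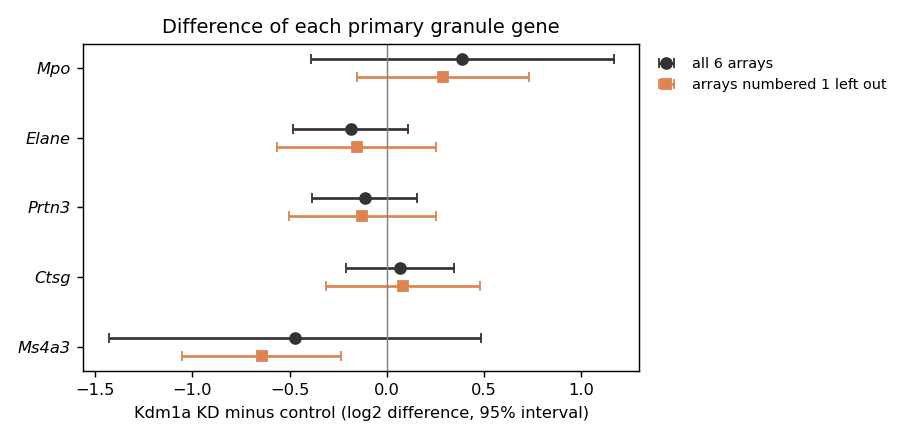
Log2 difference, Kdm1a knockdown minus control, of each primary granule gene (points) with its 95% limma interval (bars), from all 6 arrays and with both arrays numbered 1 left out. With all arrays each interval includes 0; without the arrays numbered 1 the Ms4a3 interval, -1.05 to -0.24, does not, before adjustment over all rows.

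**Figure D3:**
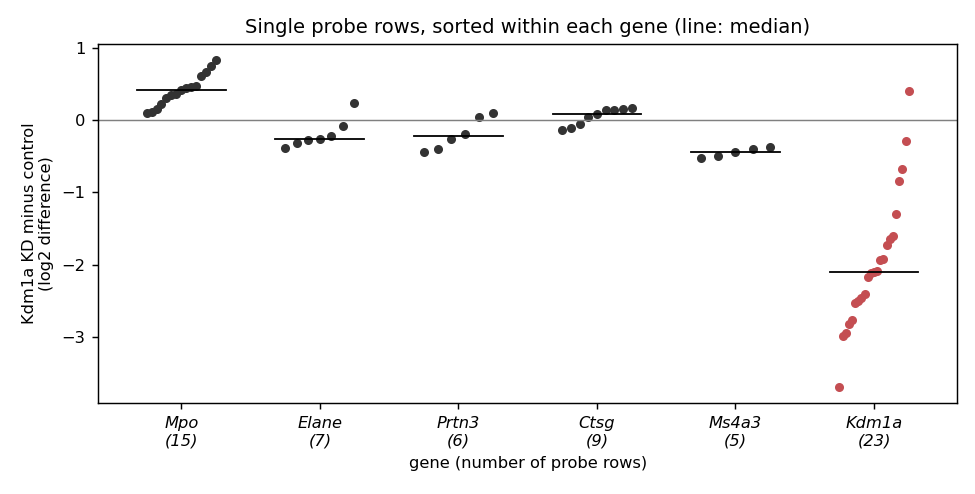
Log2 difference, Kdm1a knockdown minus control, of single probe rows (points, sorted within a gene) with the gene's median (line) for the 5 primary granule genes and Kdm1a. The 15 Mpo rows lie above 0 and the 5 Ms4a3 rows below it, the protease rows lie on both sides of 0, and 22 of the 23 Kdm1a rows are below 0.

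The 5 genes differed widely in their spread within groups. The SD within groups was 0.516 for Mpo and 0.649 for Ms4a3, larger than in 93.1% and 96.7% of all rows. It was 0.0963 for Elane, 0.0519 for Prtn3 and 0.0667 for Ctsg, larger than in only 9.30%, 1.20% and 2.97% of rows, and the median over all rows was 0.207. These shares were not matched for level or number of probe rows, and gene values summarise several probe rows. Single rows could range more widely: a Prtn3 row ran from 9.81 to 10.63 over the 6 arrays, where the gene value ranged over 0.21 log2 units. Array 1 of each group stood apart in opposite directions for Mpo and Ms4a3. Control array 1 minus the mean of control arrays 2 and 3 was -1.01 log2 units for Mpo and 0.83 for Ms4a3. Knockdown array 1 minus the mean of the other knockdown arrays was -0.71 for Mpo and 1.34 for Ms4a3. The same distances for the proteases were at most 0.12.

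Genes of the later, secondary and tertiary granules were highest in the arrays numbered 1 of both groups. In 10 of 10 genes listed for these granules array 1 was the highest of its group in both control and knockdown, a position held by 12.9% of all 18916 symbols. The list also holds S100a8 and S100a9, which encode calprotectin, a mainly cytosolic protein of neutrophils and monocytes. Lactoferrin (Ltf) had log2 values of 7.10, 4.41 and 4.63 in control and 7.30, 4.52 and 4.60 in knockdown arrays. The antimicrobial peptide precursor Camp had 10.76, 8.46 and 8.33 in control and 10.45, 7.59 and 8.18 in knockdown. S100a9, a subunit of calprotectin, had 11.92, 10.14 and 10.39 in control and 11.94, 9.53 and 9.70 in knockdown. The arrays with the lowest Mpo and the highest Ms4a3 within their groups were thus also those with the highest values of secondary granule genes, and in RNA from bulk cells a larger share of cells expressing a gene cannot be told apart from more RNA per cell.

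**Figure D4:**
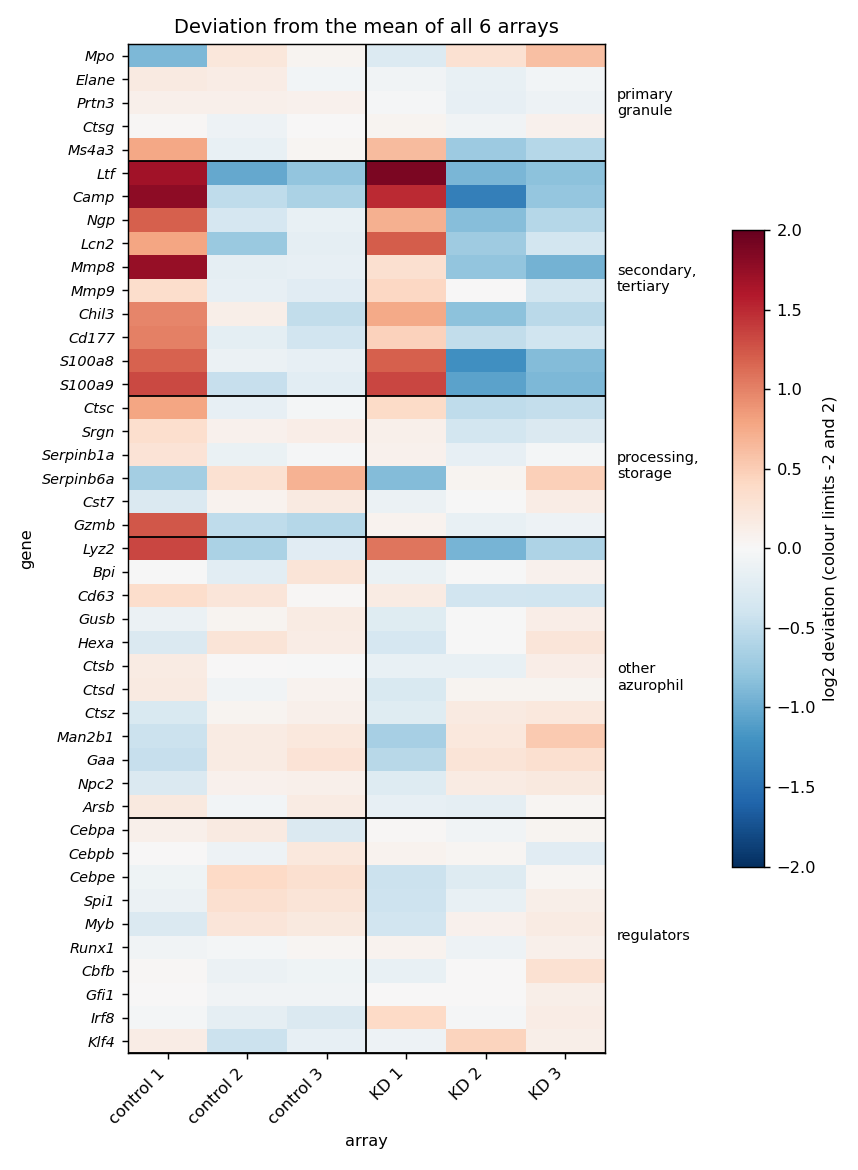
Log2 deviation of each granule gene or regulator (rows) from its mean over all 6 arrays, with colour limits at -2 and 2, for 3 control and 3 Kdm1a knockdown arrays (columns). Array 1 of both groups is high for all 10 genes of the secondary and tertiary granule list and for Ms4a3 and low for Mpo. Elane, Prtn3 and Ctsg are nearly without colour in every array.

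Between the groups, 0 of the 10 genes of the secondary and tertiary granule list passed, with 7 lower and 3 higher and a median log2 difference of -0.41. Over all 18916 symbols 0.00529% were called, 10334 were lower and 8582 higher, and the median was -0.02, which is the background for this and the following lists. Mmp8, the neutrophil collagenase, had the most negative difference at -0.93 (SE 0.555, limma adjusted p = 0.894). Without the arrays numbered 1 the median was -0.48 and again 0 passed, against 0.0159% of symbols.

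The list of genes that process, store or restrain the proteases gave no call either. Of its 6 genes 5 were lower and 1 higher, 0 passed and the median difference was -0.17, or -0.14 without the arrays numbered 1. The list also holds Gzmb, itself a protease gene, among the 5 lower at -0.12 but at 0.41 without the arrays numbered 1. Ctsc, the peptidase that activates granule serine proteases, had 9.18, 8.22 and 8.35 in control and 8.77, 7.88 and 7.91 in knockdown arrays, again with array 1 highest in each group. Srgn, the proteoglycan core on which granule proteins are packed, had 9.81, 9.55 and 9.60 in control and 9.58, 9.09 and 9.18 in knockdown. Its groups overlapped through knockdown array 1, and its difference was -0.37 (SE 0.162, limma adjusted p = 0.894). Serpinb1a, an inhibitor of elastase, proteinase 3 and cathepsin G, differed by -0.08 (SE 0.147).

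Other contents of azurophil granules, most of them lysosomal enzymes, were measured for 12 of 14 listed genes, of which 0 passed, 8 were lower and 4 higher, where 0.00529% of all symbols passed. Their median difference was -0.08 with all arrays and 0.002 without the arrays numbered 1, so its sign rests on those arrays. Lyz2, lysozyme, had 10.56, 8.59 and 8.99 in control and 10.29, 8.28 and 8.60 in knockdown arrays, the pattern by array number seen in Ms4a3. Cd63, a membrane protein of azurophil granules, differed by -0.42 (SE 0.184, limma adjusted p = 0.894). In 6 of the 12 genes array 1 was instead the lowest of both groups, as for Mpo, a position held by 28.4% of all symbols.

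Among 10 regulators of primary granule genes 0 passed the adjusted threshold, and 2 had an unadjusted p under 0.05, which 5.55% of symbols had. The median difference of the 10 was 0.02 with and without the arrays numbered 1. Cebpe, the factor needed for secondary granule formation, had 8.62, 9.11 and 9.02 in control and 8.27, 8.45 and 8.74 in knockdown arrays. The means differed by -0.43 (SE 0.182, limma adjusted p = 0.894), with knockdown array 3 above control array 1, and by -0.47 without the arrays numbered 1. Irf8, which directs progenitors toward monocytes, had 6.68, 6.54 and 6.44 in control and 7.12, 6.69 and 6.87 in knockdown. The knockdown arrays all lay above the controls, as in 4.51% of symbols, and the means differed by 0.35 (SE 0.149, limma adjusted p = 0.894), or by 0.30 without the arrays numbered 1. The differences of Cebpa, Spi1, which encodes PU.1, and Myb were 0.001, -0.30 and -0.09. Gfi1, a repressor that recruits KDM1A, differed by 0.08.

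Of the markers of other cell types, 0 of 16 measured passed, where 0.00529% of all symbols did. Symbol means of the 4 T cell, 3 B cell and 2 erythroid genes measured averaged between 3.20 and 5.41 in log2 over all 6 arrays. This was near or below the array medians of 5.125 to 5.259, which were taken over the gene-level rows and not the symbol means. The symbol means of the 5 primary granule genes averaged 8.52 to 10.88. Values of different genes are set side by side here only as a coarse check, because probe rows differ in brightness. The T cell genes averaged higher in the knockdown in 4 of 4 (median 0.26, or 0.24 without the arrays numbered 1), with list means of 4.05 to 4.45 in control and 4.40 to 4.61 in knockdown arrays. The 3 monocyte genes had list means of 6.66 to 7.04 in control and 6.53 to 6.82 in knockdown arrays. Averaged over the list, the 4 mast cell and basophil genes ran from 5.45 to 6.39 in control and from 5.11 to 6.16 in knockdown arrays, and array 1 was highest in both groups for 4 of 4. The part of such cells in the values of Mpo and Ms4a3 was not tested.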

How the data were processed

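The authors deposited log2 values made with RMA (background correction, quantile normalization and probe summary), per the submitters' processing notes, in a table of 23770 genes and a table of 267824 probe rows; the log2 scale was read from the value range. The version, genome build and row filters were not stated in those notes, and no detection calls accompany the deposited values. Groups and replicate numbers came from sample titles. Of the probe rows, 242247 carry 1 symbol in GEO's platform annotation, 2077 several and 23500 none. Older symbols were updated through RefSeq synonyms, and rows were averaged into 18916 symbols. Ela2, a synonym of more than 1 gene, was taken as Elane because the mean of its 7 rows equals the Elane gene row on all 6 arrays (tolerance 1e-06), as held for 7357 of 18957 annotated symbols. For the other 4 genes the gene value and the probe mean differed by at most 0.197.

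The groups were tested with limma 3.58.1 (R 4.3.3, lmFit, eBayes, two-sided, Benjamini-Hochberg over all rows, threshold 0.05), checked on simulated data. The simulation drew independent noise for each row and array, so it did not cover the shared pattern of the arrays numbered 1. Errors are moderated SEs. With 3 arrays a group an exact permutation test cannot go below 0.1, and precision is limited by the number of arrays. All 5 genes were named by rule, list genes where they passed, and others (Ctsc, Srgn, Serpinb1a, Ltf, Camp, S100a9, Mmp8, Lyz2, Cd63, Cebpe, Irf8, Cebpa, Spi1, Myb, Gfi1) after their values were seen. The genes and lists were chosen with earlier results of these data known. Replicate numbers were not taken to pair samples. Deviations from group means correlated at 0.54, 0.08 and 0.25 for numbers 1, 2 and 3. For unlike numbers they correlated at -0.44 to 0.28, the highest between control array 2 and knockdown array 3. Alternatives were the replicate block, quantile normalization, median centring, leaving out the lowest 25% of rows, a trend with robust prior, array weights, a threshold of 0.1, probe means and left-out arrays.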

Additional observations from a re-analysis of the deposited data

How the results depend on the processing

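In all 14 alternatives run for each primary granule gene, 0 passed the adjusted threshold, and Mpo, Elane, Ctsg and Ms4a3 kept their direction. Log2 differences ran from 0.05 to 0.63 for Mpo, -0.26 to -0.06 for Elane, 0.03 to 0.14 for Ctsg and -0.92 to -0.20 for Ms4a3. Prtn3 turned to 0.00437 after quantile normalization, where the median of the 5 genes was also 0.00437; the cause was not tested. With each array left out in turn that median ran from -0.15 to -0.09. The count of all rows called, 1 in the reported fit, was 0 after quantile normalization, with the replicate block and without the arrays numbered 1, and ranged from 0 to 0 with single arrays left out; these last 3 settings by construction leave fewer residual degrees of freedom. With the replicate block Mpo differed by 0.39 (SE 0.147, unadjusted p = 0.0412, limma adjusted p = 0.525) and Ms4a3 by -0.47 (SE 0.151, unadjusted p = 0.0228, limma adjusted p = 0.489). Rows at an unadjusted p under 0.05 rose from 1255 to 2162 with the block. The replicate block changed no call among these genes or the pathway lists. Leaving out the arrays numbered 1 was planned for the gene table and added after seeing the data for the lists and probe rows, with 0 calls among them. Without detection calls, low values have no lower limit of measurement.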

Other observations

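With the 5 genes left out of the search, the symbols with profiles most like those of Mpo and Ms4a3 over the 6 arrays were all outside the granule lists. Those lists hold few of the symbols compared, so this says little about them. By Pearson's r, given as a description over 6 arrays that include the set-apart arrays numbered 1, the symbols closest to Mpo were Serinc5 (r = 0.997), Nrm (0.992) and Txndc5 (0.991). Serinc5 had log2 values of 5.28, 5.72 and 5.64 in control and 5.56, 5.75 and 5.85 in knockdown arrays. The symbols closest to Ms4a3 were Lilrb4a (0.998), Kcnn4 (0.997) and Csta2 (0.995). Lilrb4a, an inhibitory receptor of myeloid cells, had 8.61, 7.04 and 7.44 in control and 8.22, 6.14 and 6.32 in knockdown arrays. The best of 18296 symbols compared reach high r by selection alone. Closest to the mean deviation of all 5 genes were the rows ENSMUSG00000025059 (r = 0.996) and ENSMUSG00000070934 (0.993). The comparisons for Mpo and Ms4a3 singly were added after the data were seen.

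In the table of symbol means with the arrays numbered 1 left out, 3 symbols passed limma's adjusted threshold, Kdm1a at -2.02, Il11ra1, a receptor subunit for interleukin-11, at 1.88 and Olfr800, an olfactory receptor, at -2.24. None of them is a granule gene, and the other 2 did not pass with all 6 arrays, where 1 symbol did. The gene-level table called 0 rows in the same setting.

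Across the 3 control arrays the mean of the 6 Prtn3 probe rows was 9.29 with an SD of 0.00313, against 0.0417 for the deposited Prtn3 gene value, so how narrow the controls appear depends on which probe rows are averaged.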
